A study of Rattus norvegicus with 15 samples.

Results

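Granule-fraction ribosome footprints prepared with cycloheximide were compared with those prepared in vehicle, over 3 cycloheximide and 3 vehicle libraries paired by the number in their titles. Genes were kept when their mean count over the 6 libraries was at least 50, whichever group the counts came from. This kept 12186 of the 22044 genes with a value in all 6 libraries, and between 99.82% and 99.87% of the counts of each library fell in them. The lowest mean inside the limit was 50 counts and the highest outside it was 49.8. Another 6 genes of the 22050 in the table had empty cells and were left out.

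The tissue behind all 6 libraries was whole brain of rats of the Sprague Dawley strain, aged 5 days after birth; each homogenate pooled 5 brains, and the labels name no sex and no genetic change. Both groups were homogenised in the same buffer, pelleted through sucrose, separated on a gradient whose pellet was taken as granules, digested with RNase I and collected as monosomes from another gradient. The cycloheximide group had 100 ug/ml of the drug in that buffer and the vehicle group had none, so the drug met a brain extract and not a living animal. The titles number the libraries 1 to 3 in each group, but the labels used here do not say that equal numbers share a homogenate, nor that libraries of a group came from separate animals, and p-values therefore measure only the spread between these libraries.

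Ribosomes normally move along an mRNA codon by codon, and those still moving when tissue is broken can run on and leave their message. Cycloheximide binds the large ribosomal subunit and blocks that movement, which is why it is often added to fix ribosomes in place for profiling. Neurons also carry mRNAs in RNA granules, dense assemblies of ribosomes whose elongation is thought to be paused while the message travels along dendrites and axons. While a ribosome stays paused, it takes no step that the drug could block. Ribosomes of mitochondria are not sensitive to cycloheximide. The comparison therefore asked whether the distribution of granule footprints over genes depended on blocking elongation during preparation.

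The vehicle libraries held 34584329, 37130831 and 53645452 counts for numbers 1, 2 and 3, and the cycloheximide libraries held 29658490, 29518151 and 27137704. Between 15293 and 15640 genes had a count in a library, with overlapping ranges in both groups. The 100 most counted genes took 22.0%, 24.2% and 24.1% of the vehicle counts and 21.7%, 24.6% and 24.0% of the cycloheximide counts, lowest in library 1 of both groups. The Ensembl rat gene IDs of the table were not paired with names, since the RefSeq gene table used here held 0 such IDs. Genes are therefore described by count level, rank and ID, and checks against cell type markers were not analysed here.

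Libraries numbered 1 stood apart from the other 4, in both treatments alike. The distance between 2 libraries was taken as the median absolute log2 ratio of their footprint levels over the 12186 genes. Vehicle library 1 lay 0.18 from cycloheximide library 1, but 0.42 and 0.38 from vehicle libraries 2 and 3. Cycloheximide library 1 lay 0.40 and 0.37 from cycloheximide libraries 2 and 3. The number thus separated libraries more than the drug did wherever number 1 was involved.

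Numbers 2 and 3 did not pair in this way. Vehicle library 2 lay 0.183 from cycloheximide library 2 and 0.167 from cycloheximide library 3. Vehicle library 3 lay 0.177 from cycloheximide library 3 and 0.174 from cycloheximide library 2. The vehicle libraries 2 and 3 lay 0.161 apart and the cycloheximide libraries 2 and 3 lay 0.200 apart. A footprint library with the drug was therefore about as far from one without it as replicates of 1 treatment were from each other.

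**Figure D1:**
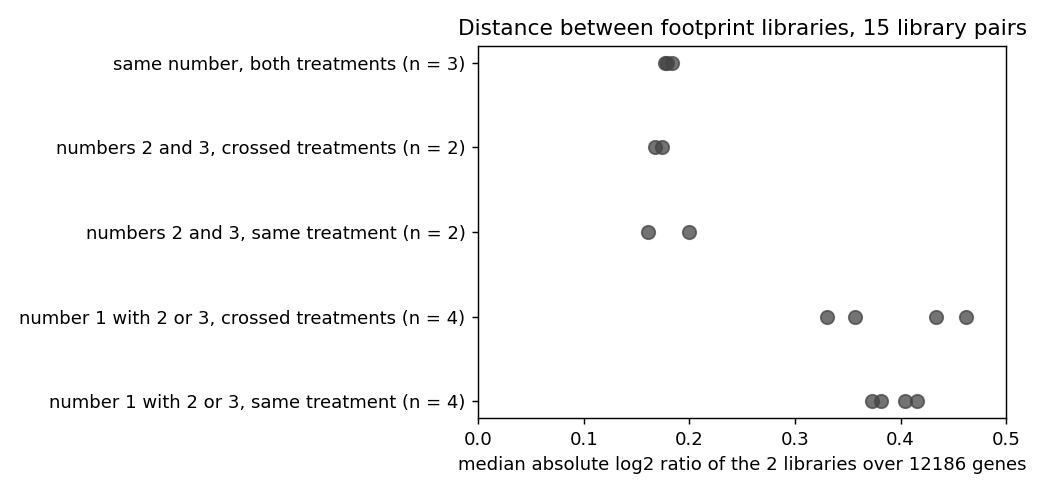
Each point is 1 of the 15 pairs of libraries, placed on the x axis by the median absolute log2 ratio of footprint levels over 12186 genes and grouped on the y axis by title number and treatment. All pairs that set number 1 against number 2 or 3 lie between 0.33 and 0.46, and all others between 0.16 and 0.20, whether or not they cross treatments.

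The same picture came from the share of footprints that would have to be moved to other genes to turn 1 library into another. Within equal numbers this was 5.42%, 5.09% and 5.40% for numbers 1, 2 and 3. It was 4.34% between vehicle libraries 2 and 3 and 5.91% between cycloheximide libraries 2 and 3. It was 12.2% to 17.9% between number 1 and the other numbers. Adding the inhibitor thus went with a redistribution of about 1 footprint in 20, a size also seen between replicates of a single treatment.

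The deviations of each library from its group mean were correlated across genes at 0.79 for number 1, 0.40 for number 2 and 0.38 for number 3. All 3 exceed 0.1, the level set for treating the numbers as pairs, and the fit below keeps them as a block. Deviations were taken from a mean of 3 libraries, and library 1 lay far from the others in both groups. That alone tends to move libraries 2 and 3 away from library 1 in both groups. Passing 0.1 therefore could not show that numbers 2 and 3 pair. For numbers 2 and 3 the crossed values were at least as high, at 0.54 for vehicle 2 with cycloheximide 3 and 0.47 for vehicle 3 with cycloheximide 2. In the same fit, edgeR's quasi-likelihood test of the number called 3494 genes (28.7%) at an adjusted p under 0.05. That test concerns differences between numbers only, and it does not show how small a drug effect the fit could call.

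No gene was called between cycloheximide and vehicle. Of 12186 genes tested with edgeR's quasi-likelihood test with the number as a block, 0 (0%) had a Benjamini-Hochberg adjusted p under 0.05, and the smallest adjusted p was 0.958. At an unadjusted p under 0.05 there were 584 genes (4.79%), close to the share that this threshold passes where no gene changes. limma-voom with the same block also called 0 genes, with 619 at an unadjusted p under 0.05, and DESeq2 called 1, with 410. The biological coefficient of variation, the relative spread between libraries beyond counting error, was 15.0% with the block and 27.8% without it.

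Among the 584 genes, 410 (3.36% of those tested) were lower with cycloheximide and 174 (1.43%) higher. The lower ones had a median of 2815 counts and held 9.25% of all counts, while the higher ones had a median of 782 counts and held 1.40%. The median over all 12186 genes was 760 counts. The share of lower genes was 70.2% with TMM scaling and 69.9% with RLE scaling. It was 54.3% with upper-quartile scaling and 46.3% when only total counts were used. Its size therefore depended on the scaling, and of these scalings only total counts gave more higher than lower genes. The median shift of all genes in a pair was between -0.016 and 0.00040 with TMM and between 0.016 and 0.037 with total counts.

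The shifts themselves were small. A paired shift is the log2 ratio of cycloheximide to vehicle in libraries of equal number, here from TMM-scaled CPM (counts per 1000000 library counts) with a prior count of 2. Its median size over genes was 0.18 in each of the 3 pairs, and its SD across genes was 0.35, 0.37 and 0.37 in pairs 1, 2 and 3. In single pairs 98.4%, 98.2% and 98.0% of the genes lay within 2-fold of no change. Averaged over the 3 pairs the median size was 0.10, and 95% of the genes lay between -0.43 and 0.40. The mean shift of a typical gene was below its own spread over pairs, which had a median SD of 0.22 (n = 3). That SD describes single pairs, and divided by the square root of 3 for a mean of 3 pairs it was 0.13. In 22.5% of the genes the mean shift exceeded the SD over pairs, which is a description and not a test.

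Counting error made up a small part of this spread. The spread expected from read counts alone had a median of 0.077 on the log2 scale, and counting error amounted to 11.6% of the summed squared shifts. The share was 15.8% in genes with a mean of 50 to 200 counts and 1.15% in those with 5000 or more. Counted reads can be PCR copies of 1 molecule, so these shares cover counting error only.

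Across all genes the shifts of the 3 pairs were weakly correlated, and with different signs. Pairs share no library, so their shifts can be set side by side. Across the 12186 genes the shifts of pairs 1 and 2 had a Pearson correlation of -0.16 (Spearman -0.16), those of pairs 2 and 3 -0.17 (Spearman -0.18), and those of pairs 1 and 3 0.25 (Spearman 0.30). These are descriptions across genes, which are not independent and share library depth and preparation. In 3098 genes (25.4%) the sign was the same in all 3 pairs, 1351 higher and 1747 lower. Signs unrelated between pairs would give 25%. The near match does not show that the signs were unrelated, because the combinations of pairs departed in opposite directions. Pairs 1 and 3 had the same sign in 62.8% of the genes, pairs 1 and 2 in 44.5% and pairs 2 and 3 in 43.5%. No gene was more than 2-fold higher in all 3 pairs and none was more than 2-fold lower in all 3. At 1.5-fold these counts were 7 and 8.

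Genes beyond 2-fold in a single pair were mostly not beyond it in another. There were 192 such genes (1.58% of 12186) in pair 1, 222 (1.82%) in pair 2 and 245 (2.01%) in pair 3. Pairs 1 and 3 shared 18, which is 9.38% of the first list and 7.35% of the second, and 13 of the 18 went the same way. Pairs 1 and 2 shared 17 (8.85% and 7.66% of their lists), of which 7 went the same way, and pairs 2 and 3 shared 23 (10.4% and 9.39%), of which 6 did. Each of these shares is above the share of all genes beyond 2-fold in a pair. That share covers all count levels, and shifts past 2-fold were more frequent at low counts. All 3 shifts lay within 2-fold in 80.9% of genes with 50 to 200 counts and in 99.3% of those with 5000 or more. The comparison cannot separate recurrence of a gene from its low count, because the share was not matched for count level. The genes past 2-fold in pair 1 had a median of 78.6 counts, near the lower limit for entry.

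**Figure D2:**
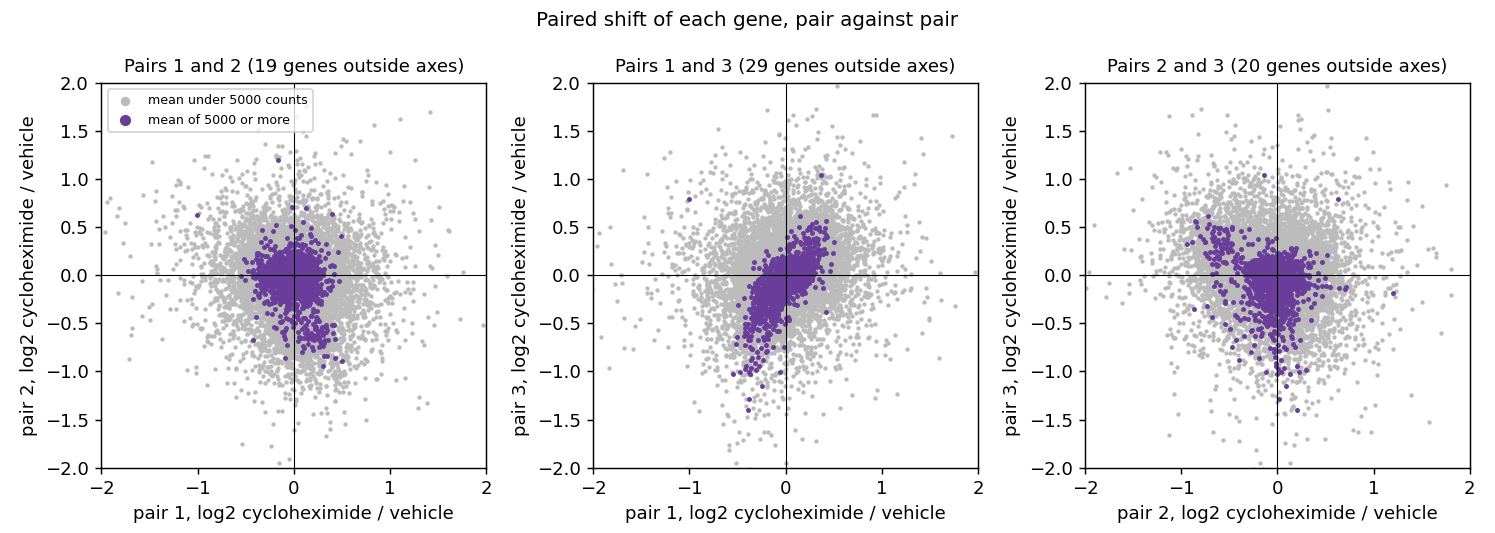
Each point is a gene, with the log2 ratio of cycloheximide to vehicle in 1 pair on the x axis and in another pair on the y axis, and purple marks genes with a mean of 5000 counts or more. Purple points run along the rising diagonal for pairs 1 and 3 (Pearson correlation 0.67) and not for pairs 1 and 2 (-0.25) or pairs 2 and 3 (-0.24).

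Highly counted genes showed the structure most clearly. In the 1557 genes with a mean of 5000 or more counts, which held 68.0% of all counts, pairs 1 and 3 correlated at 0.67 and had the same sign in 72.8% of the genes. Pair 2 correlated with pair 1 at -0.25 and with pair 3 at -0.24. The agreement of pairs 1 and 3 rose with count level, from 0.13 at 50 to 200 counts through 0.30 at 200 to 1000 and 0.53 at 1000 to 5000. Pair 2 was negatively correlated with both others in all 4 classes.

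**Figure D3:**
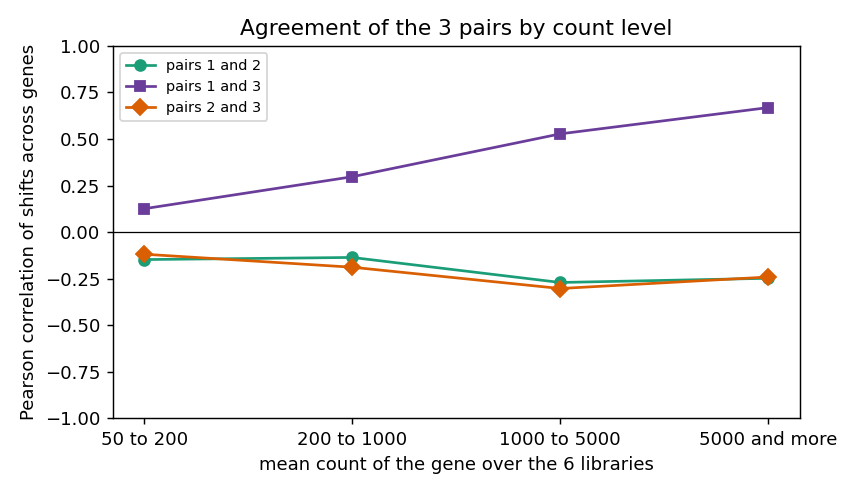
The Pearson correlation across genes of the shifts of 2 pairs (y axis) is shown in 4 classes of mean count (x axis), 1 line per combination of pairs. The line for pairs 1 and 3 climbs from 0.13 to 0.67, while the other 2 stay between -0.12 and -0.30.

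A pair of gene sets in this class, picked from the plot after their values were seen and so given without a test, are described here. The first set held 79 genes that were lower by more than 0.4 (log2) in pair 2 and higher in pairs 1 and 3. Its share of the counts was 2.91%, 2.40% and 2.18% in vehicle libraries 1 to 3 and 3.473%, 1.611% and 2.799% in cycloheximide libraries 1 to 3. Cycloheximide library 2 was thus the lowest of all 6 and cycloheximide library 1 the highest, and the groups overlapped. The median fitted change was -0.017, a small value that choosing opposite signs between pairs favours. It was -0.023 over the whole class. All 79 genes had an interval inside 2-fold, as did 1555 of the 1557 genes of the class.

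The second set held 117 genes that were lower by more than 0.4 in pair 3 and lower in pair 1. It took 7.49%, 3.35% and 4.01% of the vehicle counts and 6.45%, 3.29% and 2.67% of the cycloheximide counts, in number order. Library 1 was high in both groups and pair 2 differed little. The choice of a low cycloheximide library 3 and a high vehicle library 1 favours such a difference between numbers, so what follows is a description only. All 117 genes were higher in library 1 than in the mean of libraries 2 and 3 in both treatments. The median difference was 0.97 (log2) in vehicle and 1.02 with cycloheximide. Of all 1557 genes of the class, 529 were higher in library 1 in both treatments, with median differences of -0.17 in vehicle and -0.15 with cycloheximide.

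For the whole class, each pair was also set beside differences between numbers in libraries that the pair did not contain. The pair 3 shift correlated at -0.53 with the difference of number 1 from number 2, and the pair 2 shift at -0.29 with the difference of number 1 from number 3. The pair 1 shift correlated at -0.24 with the difference of number 2 from number 3. Over all 12186 genes the values were -0.23, -0.21 and -0.086 for pairs 3, 2 and 1. The part of these differences between numbers in the shifts was not tested.

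The calls depended on pair 2. Without it, edgeR called 396 genes (3.25% of 12186), 275 lower and 121 higher with cycloheximide, with a median absolute change of 0.43 (log2). Without pair 1 or without pair 3 it called 0, with 225 and 227 genes at an unadjusted p under 0.05. Pair 2 entered no part of the fit that left it out, so it could be read as a separate measurement of the 396 genes. There 98 of them (24.7%) had the same direction, against 42.5% of all 12186 genes. Their median shift in pair 2, taken in the direction of the call, was -0.12. Most of the 396 genes thus lay on the other side of 0 in pair 2. At an unadjusted p under 0.05 in the fit without pair 2, 698 of 2163 genes (32.3%) had the same direction in it. The other left-out pairs went the opposite way. Of the 225 genes from the fit without pair 1, 147 (65.3%) had the same direction in pair 1, against 54.9% of all genes. Of the 227 from the fit without pair 3, 150 (66.1%) had the same direction in pair 3, against 52.6% of all genes. In the fit of all 3 pairs, the interval of 380 of the 396 lay inside 2-fold, against 11277 of all 12186 genes. That fit includes pair 2, where most of the 396 went the other way, so this count is no separate check of the calls.

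The intervals say how large a change the data still allow. From the paired edgeR fit, the 95% interval of the log2 change had a median half-width of 0.34, a factor of 1.27. In 95% of the genes the half-width was at most 0.78, a factor of 1.72. For 11277 genes (92.5%) the whole interval lay between 2-fold lower and 2-fold higher. These genes held 99.5% of the counts in both groups. At 1.5-fold, 8000 genes (65.6%) were bounded, with 93.1% of the vehicle and 93.6% of the cycloheximide counts. Within 0.32 (log2) in either direction the number was 2874 (23.6%), with 63.0% and 64.2% of the counts, and at 1.1-fold it was 4.

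The bound was also put as a test. Each gene was tested against a change of 2-fold or more in both directions, by 2 one-sided tests from the same fit with Benjamini-Hochberg adjustment over all genes. A change of 2-fold or more was rejected for 11663 genes (95.7%) and one of 1.5-fold or more for 8604 (70.6%). Independently of the model, all 3 single-pair shifts lay within 2-fold in 11581 of the 12186 genes and within 1.5-fold in 9305 (76.4%). No interval lay wholly beyond 2-fold, and 3 lay wholly beyond 1.5-fold.

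How tight the bound was followed from the count level. Of the 2434 genes with 50 to 200 counts, 66.2% were bounded within 2-fold and 4.72% within 1.5-fold. Of the 4427 with 200 to 1000 counts the shares were 98.2% and 64.8%. They were 99.8% and 93.3% for the 3768 genes with 1000 to 5000 counts, and 99.9% and 96.5% for the 1557 with 5000 or more. The median half-width fell from 0.68 to 0.39, 0.25 and 0.18 over these classes. The 909 genes not bounded within 2-fold had a median of 81.7 counts, and in 475 of them the interval reached past 2-fold lower and in 450 past 2-fold higher, with 16 reaching past both.

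**Figure D4:**
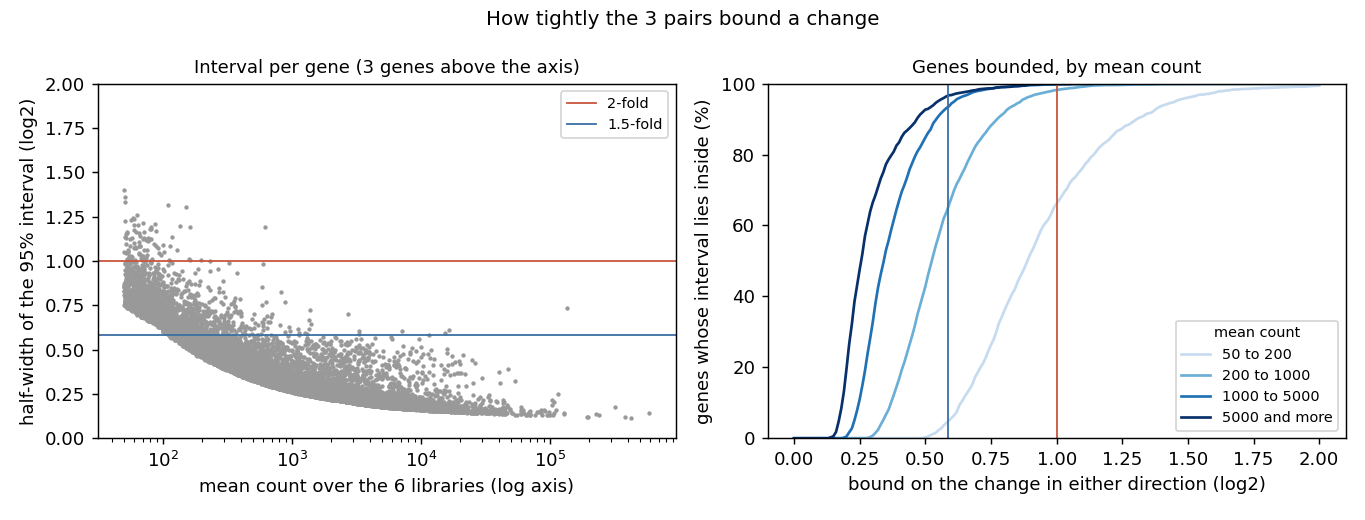
The left panel shows the half-width of each gene's 95% interval (y axis, log2) against its mean count (x axis, log scale), and the right panel the percentage of genes (y axis) whose whole interval lies inside a given bound (x axis, log2) in 4 classes of mean count. The lines mark 1.5-fold (blue) and 2-fold (red), and 66.2% of the lowest class but 99.9% of the highest are bounded within 2-fold.

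The bound rests on the pairing. When edgeR was run without the block it called 0 genes, with 32 at an unadjusted p under 0.05, and 9338 genes (76.6%) were bounded within 2-fold and 4616 (37.9%) within 1.5-fold. A block that only set number 1 apart from numbers 2 and 3, added after the distances were seen, gave 11302 genes within 2-fold and 8089 within 1.5-fold. So the separation of number 1 alone gave the tighter bound. A count per gene cannot show a change shared by all genes, since levels are relative to the library total, nor a change of ribosome position within a gene.

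The 10 most counted genes are given here with their plain CPM, counts over the library total without TMM factors. The largest mean was 590130 counts, 5 were higher and 5 lower with cycloheximide, and their edgeR estimates lay between -0.26 and 0.15 (log2). The most counted of all stood at 20460, 16010 and 17160 CPM in vehicle libraries 1 to 3 and at 16590, 15210 and 13900 CPM in cycloheximide libraries 1 to 3. It was lower in every pair, by TMM-scaled shifts of 0.33, 0.11 and 0.34 (log2), and the groups overlapped in 1 library of each. Its interval ran from -0.40 to -0.12 with an edgeR adjusted p of 0.958. The second most counted had the narrowest interval of all 12186 genes. It stood at 8938, 12640 and 13520 CPM in vehicle and 9290, 13300 and 13820 CPM with cycloheximide, and its interval ran from -0.09 to 0.13.

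The ninth most counted gene was the exception among them. Its shift was -1.002 in pair 1 but 0.63 in pair 2 and 0.79 in pair 3, and its interval ran from -0.58 to 0.89. A high count thus did not by itself give a tight bound where the pairs disagreed.

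ENSRNOG00000024923, picked with its values known, had the smallest p among genes that were higher with cycloheximide. It stood at 87.8, 204 and 227 CPM in vehicle libraries 1 to 3 and at 127, 277 and 274 CPM in cycloheximide libraries 1 to 3. It was higher in all 3 pairs, while the groups overlapped because library 1 was low in both. The log2 change was 0.38 (SE 0.082, edgeR adjusted p 0.958).

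ENSRNOG00000059949 had the largest mean shift upward among genes with 500 or more counts and 1 sign in all pairs. It stood at 8.76, 16.5 and 15.0 CPM in vehicle and at 12.6, 21.6 and 28.8 CPM with cycloheximide. Again the groups overlapped through library 1 only. Its mean shift was 0.58 ± 0.28 (SD, n = 3 pairs), and the 5 largest upward genes by this rule lay between 0.48 and 0.58.

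ENSRNOG00000005726 had the smallest p of all. It stood at 973, 320 and 453 CPM in vehicle libraries 1 to 3 and at 759, 242 and 291 CPM in cycloheximide libraries 1 to 3. It was lower in all 3 pairs, and library 1 was the highest in both groups. The log2 change was -0.50 (SE 0.078, edgeR adjusted p 0.958), with an interval from -0.68 to -0.32. The 5 genes with the smallest p were all lower with cycloheximide, with estimates between -0.64 and -0.38, and for these 5 too the edgeR adjusted p was 0.958.

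ENSRNOG00000020382 was the 1 gene that DESeq2 called (adjusted p 0.0116), and it was picked with its values known. It had 622, 127 and 971 counts in vehicle libraries 1 to 3 and 361, 11 and 147 counts in cycloheximide libraries 1 to 3. In CPM that was 18.0, 3.42 and 18.1 against 12.2, 0.373 and 5.42, lower in all 3 pairs with overlapping groups. Its shifts were -0.59, -3.05 and -1.77, and edgeR gave -1.58 (SE 0.39, adjusted p 0.958). The edgeR interval ran from -2.51 to -0.65, wholly beyond 1.5-fold, and the DESeq2 estimate was -1.70. The call at an adjusted p under 0.05 was thus not shared between the tools, though both estimates were lower with cycloheximide. The 5 largest downward genes with 500 or more counts had mean shifts between -1.51 and -0.61, and the first of them was carried by pair 3 at -2.98 beside -0.71 and -0.85 in the other pairs.

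**Figure D5:**
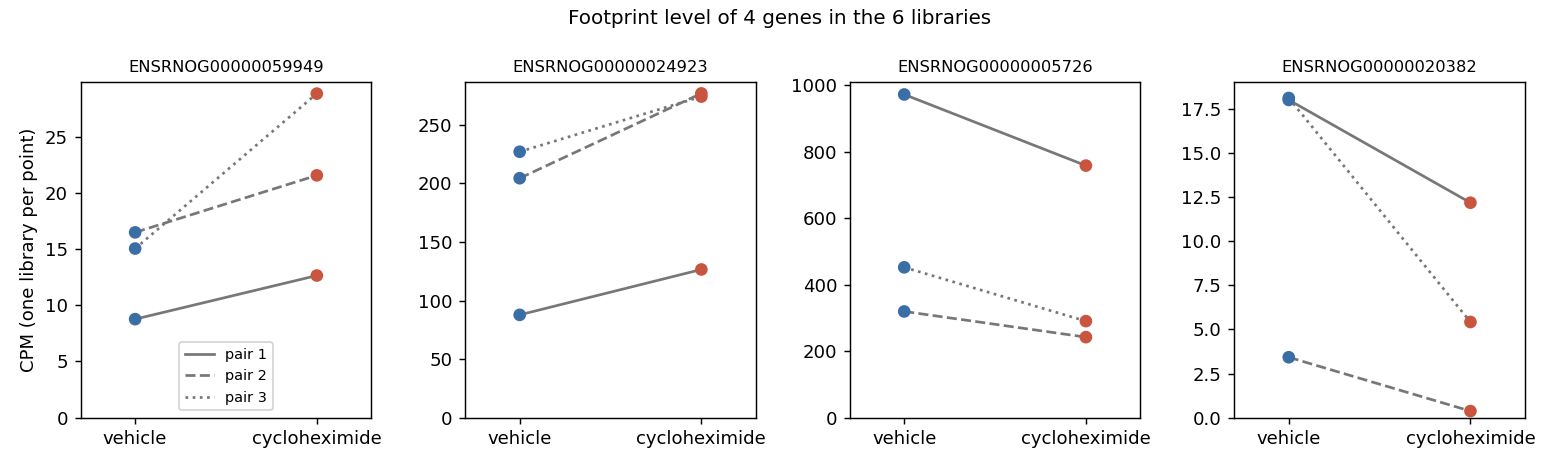
The footprint level in CPM (y axis) is shown in vehicle and cycloheximide libraries (x axis) for 4 genes, with 1 point per library and a line joining libraries of equal number. The first 2 genes are higher and the last 2 lower with cycloheximide in all 3 pairs, and in each gene the vehicle and cycloheximide levels overlap between pairs.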

How the data were processed

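The values are raw read counts per Ensembl rat gene ID, as deposited by the authors in 1 table, and 6 of its columns were used here by title. The submitters' processing notes name the build Rnor_6.0, CASAVA, cutadapt 2.8, Bowtie2 2.3.5, STAR 2.7.3a and deepTools, with no role given. The counting program and annotation are not given in the sources used here.

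Counts were fitted in R 4.3.3 with edgeR 4.0.16 (TMM, robust quasi-likelihood test, title number as block). Benjamini-Hochberg adjustment ran over all 12186 genes and the threshold was 0.05. Intervals (95%) used the fitted weights and moderated variance, and their procedure was tested on counts simulated from the fitted model itself. That test cannot show how the intervals behave where pairs disagree in a shared direction, because the simulated counts held no such structure. Alternatives used limma 3.58.1, DESeq2 1.42.0, other scalings and filters, and each pair left out. Named genes were those with the smallest p, the largest same-sign shifts at 500 or more counts, the highest counts and the narrowest intervals. The comparison, rules and lists were chosen with earlier results of these data known. Planned gene groups, cell type markers and coding length were not analysed here, because the IDs matched no name table.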

Additional observations from a re-analysis of the deposited data

How the results depend on the processing

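With the replicate block, 0 genes were called under all 3 other scalings, 3 other filters, without robust estimation and with limma-voom, and DESeq2 called 1. Leaving out 1 pair gave 0 to 396 calls, the highest without pair 2. Without the block, genes bounded within 1.5-fold numbered 4616 against 8000. Among genes with 500 or more counts, 7338 of 7361 were bounded within 2-fold, a lower number because fewer genes were tested, and the median absolute mean shift was 0.0812 in place of 0.105. That median ran from 0.119 to 0.151 with 1 pair left out. The mean correlation between pairs, -0.030 over all 3, ran from -0.17 to 0.25, the highest for pairs 1 and 3. The cause of the disagreement of pair 2 was not tested. Fits with a 2-level block, and of pairs 2 and 3 without a block (0 calls, 10209 genes within 2-fold), were added after seeing the data. Fits by gene group were not run. Low counts widen the bound, and 3 pairs allow no exact two-sided p under 0.25 for a single value.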
